A study of Rattus norvegicus with 23 samples.

Results

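Cytoplasmic aminoacyl-tRNA synthetases are the enzymes that join each amino acid to its transfer RNA, the step that feeds the ribosome. The 10 genes described here were Aars1, Cars1, Eprs1, Gars1, Iars1, Lars1, Mars1, Nars1, Sars1 and Wars1. Each was taken from the probe sets annotated to that gene alone, also under its older symbol without the final digit, and where a gene had several, the brightest on average across the 23 arrays stood for it. All 10 were measured, out of 14217 genes represented in the same way. Liver RNA from the left lateral lobe of male Sprague Dawley rats was hybridised to Affymetrix rat genome arrays, after repeated daily oral gavage with a hepatotoxicant or a vehicle, an overnight fast, and necropsy about a day after the last dose. Alpha-naphthylisothiocyanate (ANIT, 100 mg/kg), a bile duct toxicant, was set against corn oil at 5 ml/kg. Methylenedianiline (MDA, 100 mg/kg), which also injures bile ducts, was set against 35% ethanol at 2 ml/kg. Acetaminophen (APAP, 1000 mg/kg), an analgesic, was set against corn oil at 2 ml/kg. Diclofenac (DCLF, 10 mg/kg), an anti-inflammatory drug, was set against water at 10 ml/kg. The APAP and DCLF groups and their vehicles came from a single in-life study, whereas ANIT and MDA each had a study of their own. Every group held 3 rats except water, which held 2. For the 5 ml/kg corn oil group the sample titles start with different animal numbers but share their last one, so 3 rats there is a reading of the leading numbers. These are whole-tissue values, in which fewer cells of a type and less RNA per cell cannot be told apart.

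Each synthetase is specific for its amino acid: Aars1 charges alanine, Cars1 cysteine, Gars1 glycine, Iars1 isoleucine, Lars1 leucine, Mars1 methionine, Nars1 asparagine, Sars1 serine and Wars1 tryptophan, while Eprs1 is a fused enzyme for glutamate and proline. Eprs1, Iars1, Lars1 and Mars1 sit in the multi-synthetase complex, which is held together by the scaffold proteins Aimp1, Aimp2 and Eef1e1, and the other 6 act outside it. Uncharged transfer RNA is sensed by the kinase GCN2, whose target eIF2 alpha lets the transcription factor ATF4 be translated, and ATF4 is known to raise transcription of many cytoplasmic synthetases together with amino acid synthesis enzymes such as asparagine synthetase. Wars1 stands apart in that it is also a well-known interferon gamma induced gene.

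ATF4 binds, with C/EBP partners, the amino acid response element TGATGCAA, and this element was looked for on both strands in the RefSeq promoter windows of assembly GRCr8, which run from 250 bases before to 50 bases after each gene start. Of the 10 genes, 9 had a window. The element was in 5 of these 9 windows, against 0.795% of all 33469 windows (266 windows). The looser form TGATGNAA, which includes every TGATGCAA match, was in the same 5 windows and in 3.98% of all windows. The E-box CACGTG, a palindrome, was in the windows of Aars1 and Iars1 and in 6.42% of all windows. A letter match is a description of the sequence and does not show that a factor is bound. The stretches around the element are printed below because they are the sequence feature the 5 genes share, with TGATGCAA or its reverse complement in capitals. Cars1, Iars1, Mars1 and Nars1 are on the minus strand and Aars1 is on the plus strand, and each stretch reads 5′ to 3′ along its gene.
Aars1 (chr19:55908315-55908432): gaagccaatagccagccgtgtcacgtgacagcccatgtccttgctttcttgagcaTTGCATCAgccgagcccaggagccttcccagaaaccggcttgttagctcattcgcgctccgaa
Cars1 (chr1:208225340-208225407): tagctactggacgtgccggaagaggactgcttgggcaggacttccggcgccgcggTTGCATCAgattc
Iars1 (chr17:15193623-15193731): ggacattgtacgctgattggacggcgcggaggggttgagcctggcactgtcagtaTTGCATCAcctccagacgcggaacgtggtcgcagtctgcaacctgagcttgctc
Mars1 (chr7:65023724-65023825): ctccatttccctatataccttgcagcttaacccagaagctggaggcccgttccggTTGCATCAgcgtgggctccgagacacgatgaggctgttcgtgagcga
Nars1 (chr18:60275753-60275851): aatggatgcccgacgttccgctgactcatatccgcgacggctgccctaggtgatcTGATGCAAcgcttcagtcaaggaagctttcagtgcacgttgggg
The element lay in the reverse orientation in 4 of the 5 genes and in the forward orientation in Nars1. Its first base was 112 bases before the start in Aars1, 24 before it in Iars1, 17 before it in Mars1 and 14 before it in Nars1, while in Cars1 it was base 18 of the transcribed part. Among the other cytoplasmic synthetases, Tars1 and Yars1 also held the element, 2 of 9 with a window.

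The arrays were alike in scale. The median of the 23 arrays ranged from 8.95 to 9.02 on the log2 scale, and correlations between arrays of a group ranged from 0.987 to 0.995. Defining hepatocyte markers were high in every group, with a mean over 12 markers of 13.80 to 14.72 log2 units in single livers. Values are log2 robust multichip average (RMA) values, so a difference of 1 is a doubling of signal, and levels of different probe sets are not set against each other. A gene was called when it passed an adjusted p of 0.05 in limma together with a change of more than 1.5-fold, which is 0.58 on the log2 scale. Errors beside a group mean are SD and errors beside a log2 difference are standard errors from the limma fit. With 3 livers against 3, the smallest exact two-sided p for a single gene is 0.1, and with 3 against 2 it is 0.2, so calls rest on the fit across all probe sets, with the per-gene test of the study's methods given as an alternative.

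**Figure D1:**
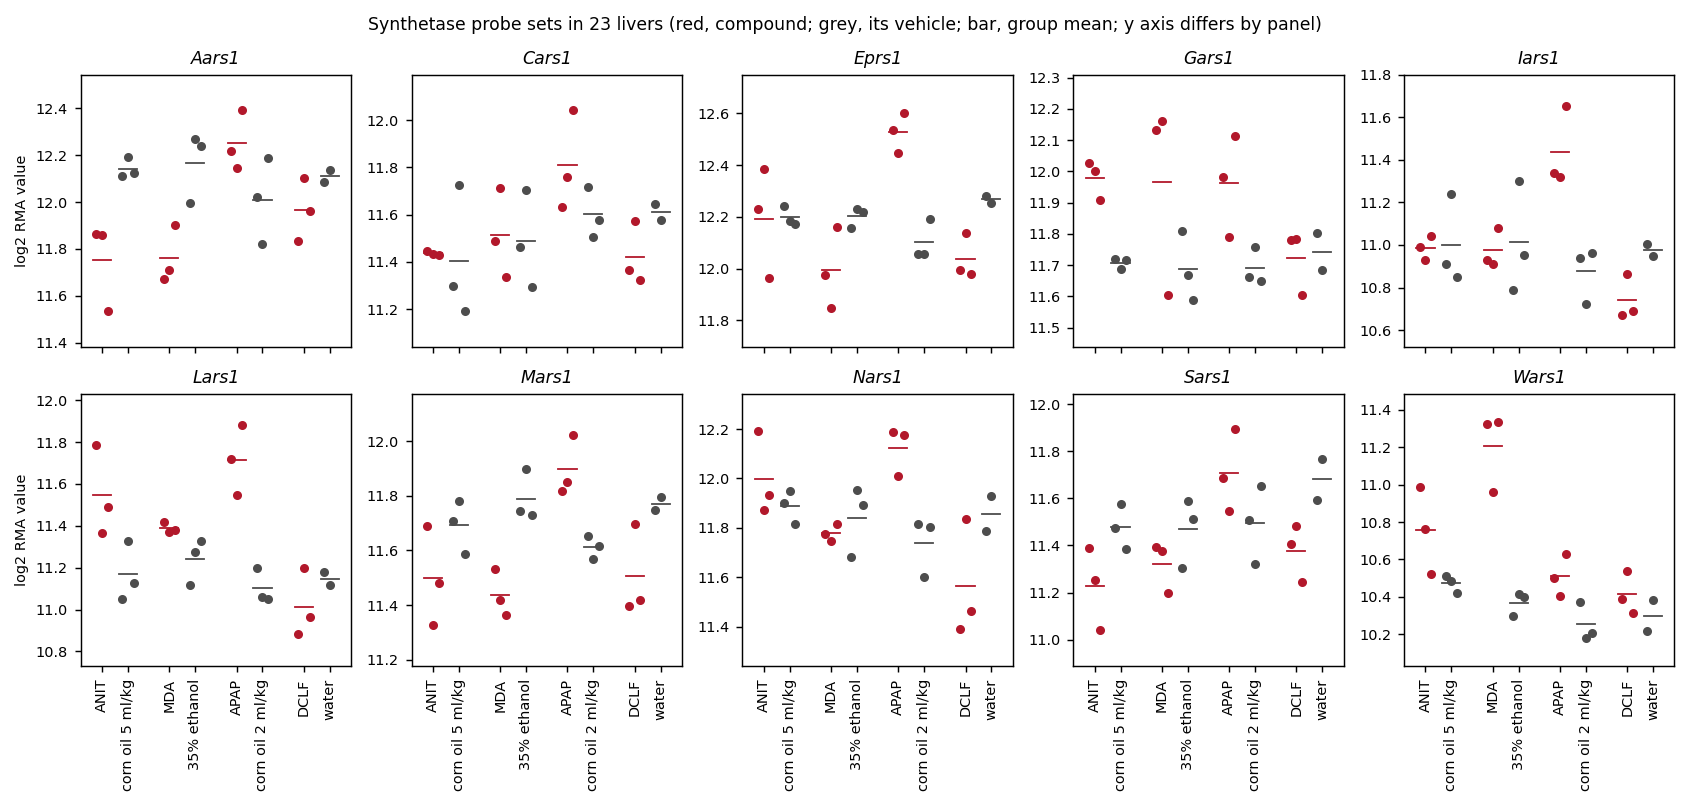
Log2 RMA value (y axis, its range differs by panel) of the 10 synthetases in each of the 23 livers, with compound groups in red left of their vehicle in grey. Each point is a liver and each bar a group mean, and the APAP bar is the highest of the 8 groups in 8 panels.

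Group means of the synthetases ran from 10.25 to 12.53 log2 units and varied little between vehicles. The means of the 4 vehicle groups differed by 0.053 log2 units for Gars1, the glycine enzyme, and by at most 0.22 for Wars1. Over all 8 groups the span was 0.29 for Gars1 and 0.95 for Wars1, the widest of the 10. APAP livers held the highest of the 8 group means for 8 of the 10 genes, the exceptions being Gars1, highest in ANIT at 11.98 ± 0.0632 (n = 3), and Wars1, highest in MDA at 11.21 ± 0.214 (n = 3). DCLF livers held the lowest mean for Iars1, Lars1 and Nars1. Neighbours in these orders were mostly closer than the spread inside a group: Gars1 averaged 11.98 in ANIT, 11.97 in MDA and 11.96 in APAP livers, with an SD of 0.313 in MDA. Group means set across the 3 in-life studies are given as levels only.

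In APAP livers all 10 synthetases lay above their corn oil level, yet none passed the call. The log2 differences ran from 0.21 for Cars1 and Sars1 to 0.61 for Lars1, with a median of 0.28 where the median over all genes was 0.018. Calls numbered 0 higher and 0 lower among the 10, in a comparison that called 0.239% of all genes higher and 0.0844% lower. Before adjustment, 7 of the 10 had a limma p under 0.05, beside 1655 of all 14217 genes. The 3 APAP livers were all above the 3 corn oil livers for 7 of the 10 genes, where 10.4% of all genes showed that separation and 7.09% the opposite one. None of the 10 was separated the other way. The test named in the study's methods, with no adjustment but the same fold threshold, called 1 gene, Lars1, and called 0 after adjustment.

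By the probe set used for each gene, Lars1, Iars1 and Eprs1 of the multi-synthetase complex had the 3 largest differences of the 10 genes. Mars1, also in the complex, was below Nars1. The further Eprs1 probe sets were lower, at 0.25, 0.09 and 0.11, and the further Lars1 probe set was at 0.32, so this order depends on the probe set. Lars1, the leucine enzyme and a proposed leucine sensor of the mTORC1 pathway, measured 11.72, 11.55 and 11.88 log2 units in APAP livers, against 11.20, 11.06 and 11.05 in corn oil livers. The lowest APAP liver was thus well above the highest corn oil liver, and the difference was 0.61 ± 0.0995 (limma adjusted p = 0.0778). Quantile normalization of the arrays brought Lars1 past the call at 0.62 (limma adjusted p = 0.0414), as did a fit over all 23 samples (adjusted p = 0.00689). Over all alternatives run, including those without a sample, its adjusted p in limma ranged from 0.00689 to 0.253. Iars1, the isoleucine enzyme, measured 11.34, 11.32 and 11.65 in APAP livers, against 10.94, 10.72 and 10.96 in corn oil livers. It differed by 0.56 ± 0.113 (limma adjusted p = 0.141), with no overlap between the groups. Eprs1, which also has a known role in interferon gamma dependent translational silencing in human cells, measured 12.54, 12.45 and 12.60 in APAP livers and 12.06, 12.06 and 12.19 in corn oil livers. Its difference was 0.43 ± 0.0779 (limma adjusted p = 0.106), and its groups did not overlap either. Mars1, which charges both initiator and elongator methionine transfer RNA, differed by 0.28 ± 0.0803 (limma adjusted p = 0.291), again with every APAP liver above every corn oil liver.

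Among those of the 10 genes outside the complex, Nars1 had the largest difference. Nars1, the asparagine enzyme, measured 12.19, 12.01 and 12.18 in APAP livers, against 11.81, 11.60 and 11.80 in corn oil livers, a difference of 0.39 ± 0.0902 (limma adjusted p = 0.2). Gars1 and Wars1 also separated the groups, at 0.27 ± 0.0953 and 0.26 ± 0.0894 (limma adjusted p = 0.388 and 0.383). The groups overlapped for Aars1, the alanine enzyme, at 0.24 ± 0.112, for Cars1, the cysteine enzyme, at 0.21 ± 0.116, and for Sars1, the serine enzyme, at 0.21 ± 0.117. The 95% intervals of 6 of the 10 lay inside the fold threshold on both sides, so a change past 1.5-fold lay outside the interval for those 6. APAP replicate 3 was the highest of its group in 9 of the 10 genes, although it was the highest in 37.3% of all genes, and APAP replicate 2 was the lowest in 8. Without APAP replicate 3 the median difference was 0.21, with all 10 still above 0. The mean over 12 hepatocyte markers was 14.54 to 14.62 in APAP livers and 14.66 to 14.72 in corn oil livers, with 0 of the 12 called, and the mean over 11 macrophage markers was 10.14 to 11.00 in APAP livers and 10.05 to 10.72 in corn oil livers. The part of these levels in the synthetase values was not tested.

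**Figure D2:**
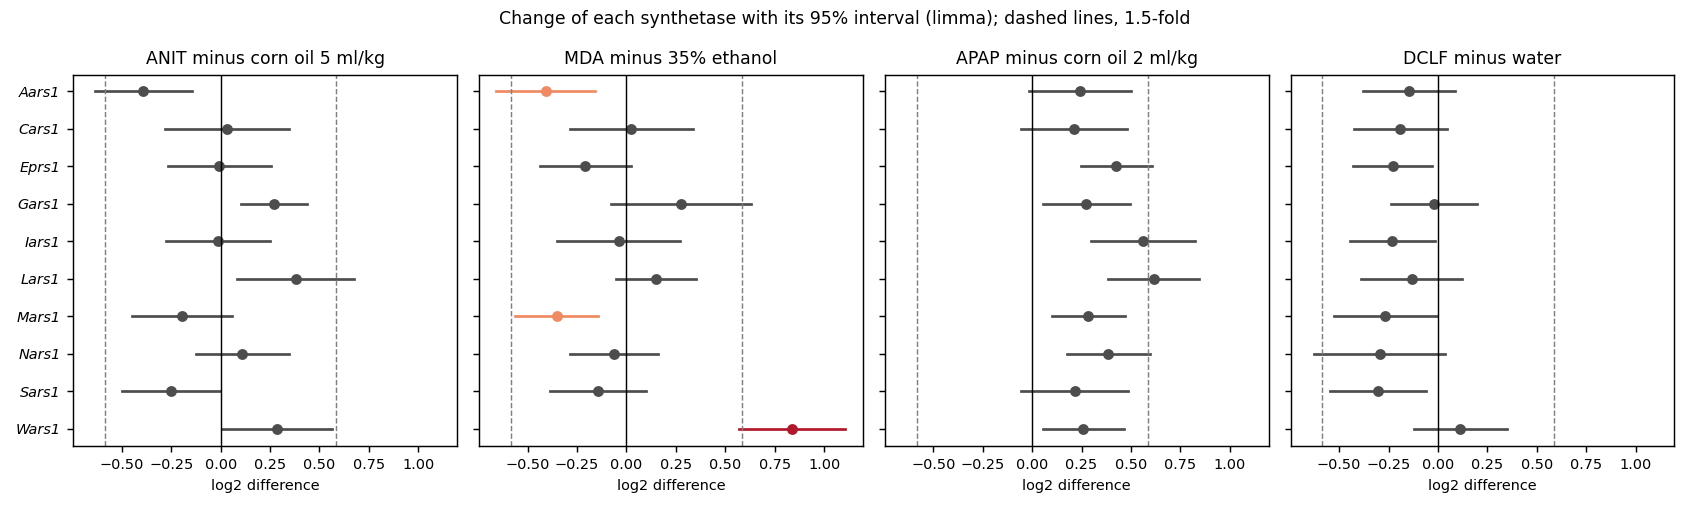
Log2 difference of each synthetase between a compound and the vehicle of its own study (x axis), with its 95% interval from limma, in 4 panels. Red marks the call (Wars1 in MDA), orange an adjusted p under 0.05 with a fold under 1.5 (Aars1 and Mars1 in MDA), and grey neither. All 10 points lie right of 0 for APAP and 9 of 10 lie left of it for DCLF.

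MDA livers showed the largest single difference among the 10 genes, in Wars1. Wars1 measured 11.32, 10.96 and 11.34 log2 units in MDA livers, against 10.30, 10.41 and 10.40 in ethanol livers, so the lowest MDA liver was above the highest ethanol liver. It rose by 0.84 ± 0.118, or 1.79-fold (limma adjusted p = 0.00331), and was the only one of the 10 called, in a comparison that called 4.9% of all genes higher and 4.23% lower. The rise was called without any 1 of the 6 livers, at 0.77 to 0.96. The methods' test called it before adjustment but not after it (adjusted p = 0.0696). A further Wars1 probe set differed by 0.15 (limma adjusted p = 0.393). The one used was chosen by its mean over all 23 arrays, MDA livers included, at 10.55 against 10.44. In ethanol livers the further one was the brighter, at 10.41 against 10.37. The choice of probe set behind this call thus drew in part on the values it tests. With the mean of both, the difference was 0.49 (limma adjusted p = 0.00678) and was under the fold threshold. The probe sets of Wars1 therefore gave unequal values, and the array data do not say which transcripts each reads.

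Other interferon gamma induced genes moved with Wars1 in the MDA livers. Of 11 measured, 9 were called higher and 0 lower, with a median of 1.11. They were led by Gbp2, an interferon-induced GTPase, at 2.92 ± 0.247 (limma adjusted p = 0.000462), followed by the T cell attracting chemokines Cxcl9 at 1.90 ± 0.298 and Cxcl10 at 1.79 ± 0.27, and the immunoproteasome subunit Psmb9 at 1.25 ± 0.186. The mean over the 11 genes was 11.01 to 11.51 in MDA livers and 9.95 to 10.20 in ethanol livers. Macrophage markers moved in the same livers: 8 of 11 were called higher, led by Gpnmb at 2.04 and Aif1 at 1.69, and their mean was 11.38 to 11.63 in MDA livers and 10.47 to 10.71 in ethanol livers. Lymphocyte markers were called higher in 3 of 11 and lower in 0, with a mean of 9.13 to 9.31 in MDA livers and 8.80 to 8.91 in ethanol livers. The part of these cells in the Wars1 value was not tested. In ANIT livers 1 of the 11 interferon gamma induced genes was called, Psmb9 at 1.07, and Wars1 measured 10.99, 10.76 and 10.52 in ANIT livers, against 10.51, 10.48 and 10.42 in corn oil livers. That difference was 0.28 ± 0.119 (limma adjusted p = 0.203), with the lowest ANIT liver only just above the highest corn oil liver.

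The other 9 synthetases were not called in MDA livers. Aars1 measured 11.67, 11.71 and 11.90 in MDA livers, against 12.00, 12.27 and 12.24 in ethanol livers, a difference of -0.41 ± 0.109 (limma adjusted p = 0.0433). Mars1 measured 11.53, 11.42 and 11.36 in MDA livers, against 11.74, 11.90 and 11.73 in ethanol livers, a difference of -0.35 ± 0.0917 (limma adjusted p = 0.0399). Both genes were below ethanol in every liver and both passed the adjusted p, but their differences were under 1.5-fold. Groups did not overlap for 2 genes on the higher side, Wars1 and Lars1, where 17.1% of all genes showed this, and for 2 on the lower side, Aars1 and Mars1, where 18.4% did, so these shares were close to those of all genes. The median over the 10 was -0.051 in MDA livers, beside 0.002 over all genes, and it was 0.042 after quantile normalization, -0.15 without ethanol replicate 1 and 0.049 without ethanol replicate 2. For 7 of the 10 genes the 95% interval lay inside 1.5-fold on both sides. Gars1 measured 12.13, 12.16 and 11.61 in MDA livers, so that replicate 3 fell among the ethanol livers at 11.81, 11.67 and 11.59. Hepatocyte markers were called lower in 4 of 12 and higher in 0 in MDA livers, and their mean was 14.27 to 14.37 in MDA livers and 14.63 to 14.65 in ethanol livers; their part in these values was not tested.

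ANIT livers had 0 synthetases called higher and 0 lower, in a comparison that called 3.84% of all genes higher and 3.38% lower. At an unadjusted limma p under 0.05 there were 5 of the 10, beside 3979 of all 14217 genes, and the methods' test called 0 with and without adjustment. The 10 genes were spread around 0, with 5 above and 5 below it and a median of 0.013 (7 above after quantile normalization or median centring). Aars1 was the lowest, at 11.86, 11.86 and 11.53 in ANIT livers, against 12.11, 12.19 and 12.12 in corn oil livers. Every ANIT liver was below every corn oil liver, and the difference was -0.39 ± 0.105 (limma adjusted p = 0.0587). Lars1 was the highest, at 11.78, 11.37 and 11.49 in ANIT livers, against 11.05, 11.33 and 11.13 in corn oil livers, a difference of 0.38 ± 0.127 (limma adjusted p = 0.113). Gars1 measured 12.03, 12.00 and 11.91 in ANIT livers, against 11.72, 11.69 and 11.72 in corn oil livers, a difference of 0.27 ± 0.0727 (limma adjusted p = 0.0583). Gars1 thus had a narrow spread in both groups and no overlap. Non-overlap on the higher side was seen in 3 genes (14.1% of all genes) and on the lower side in Aars1 alone (18.8% of all genes). Intervals lay inside 1.5-fold for 8 of the 10. The median over the 10 was 0.12 without corn oil replicate 2. The mean over 12 hepatocyte markers was 13.80 to 14.57 in ANIT livers and 13.99 to 14.70 in corn oil livers at 5 ml/kg, with 0 of the 12 called. These ranges were wider than in any other group, also among the control livers, and their part in the synthetase values was not tested.

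DCLF livers also had 0 synthetases called in either direction, in a comparison that called 0% of all genes higher and 0% lower, and the methods' test called 0 of the 10. An unadjusted limma p under 0.05 was reached by 4 of the 10, beside 1684 of all 14217 genes. Differences were below 0 for 9 of the 10, with a median of -0.21 where the median over all genes was -0.033 (8 of the 10 and -0.087 after quantile normalization). The lowest was Sars1, at 11.41, 11.48 and 11.25 in DCLF livers, against 11.59 and 11.77 in water livers, a difference of -0.30 ± 0.103 (limma adjusted p = 0.331). Nars1 followed at -0.29 ± 0.141, but DCLF replicate 2, at 11.84, lay between the water livers at 11.79 and 11.93. Mars1 stood at -0.27 ± 0.11, and Iars1 and Eprs1 both stood at -0.23. The DCLF livers were all below the water livers for 5 genes (Cars1, Eprs1, Iars1, Mars1 and Sars1), where 20.8% of all genes showed this and 10% the reverse. Wars1 was the 1 gene above 0, at 0.11 ± 0.1. DCLF replicate 2 was the highest of its group in 10 of the 10 genes, beside 42.7% of all genes, and without it the median was -0.27.

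The vehicles of the APAP and DCLF study were set against each other to size a difference that owes nothing to either drug. All 10 synthetases had a lower mean in corn oil than in water (7 after quantile normalization, 9 after median centring, 8 to 10 without any 1 sample), with differences from -0.19 for Sars1 to -0.0099 for Cars1 and a median of -0.10. Calls numbered 0 in each direction, as over all genes (0% higher and 0% lower), and 0 of the 10 had an unadjusted limma p under 0.05, beside 856 of all 14217 genes. Groups did not overlap for Eprs1 and Mars1, which were lower in corn oil, where 14.7% of all genes were so separated and 7.92% were separated the other way. The mean over the 10 genes was 11.68 to 11.94 in APAP livers and 11.36 to 11.50 in corn oil livers, while it was 11.30 to 11.52 in DCLF livers and 11.53 to 11.56 in water livers. The APAP livers thus lay above both vehicles of their study, whereas the DCLF livers lay below water and overlapped corn oil at 2 ml/kg.

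Effects were next set against each other, each taken within its own study, to ask whether compounds differed in what they did to the synthetases. The MDA effect was below the APAP effect by a called margin for 3 of the 10 genes, in a contrast that called 3.9% of all genes higher and 3.1% lower. These were Mars1 at -0.64 ± 0.117 (limma adjusted p = 0.00792), Eprs1 at -0.63 ± 0.124 (adjusted p = 0.0112) and Aars1 at -0.65 ± 0.161 (adjusted p = 0.0328). The median over the 10 was -0.46, beside -0.027 over all genes. After quantile normalization the 3 stood at -0.55 to -0.54 and fell short of the fold threshold. With the mean of all its probe sets, Eprs1 stood at -0.33 (limma adjusted p = 0.185). Wars1 went the other way, at 0.58 ± 0.151 (limma adjusted p = 0.0415), just under the fold threshold. The call of Eprs1 was lost without MDA replicate 2 (-0.56), and that of Mars1 without ethanol replicate 2 (-0.58) or APAP replicate 3 (-0.57). The call of Aars1 was lost without any 1 of 8 livers (MDA replicates 1 and 2, ethanol replicates 2 and 3, APAP replicates 1 and 3, and corn oil replicates 1 and 2), where its difference was between -0.67 and -0.56. Wars1 was called at 0.70 without MDA replicate 2 and at 0.64 without APAP replicate 3.

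The ANIT effect was below the APAP effect for Aars1, at -0.63 ± 0.161 (limma adjusted p = 0.0412), the 1 gene of the 10 called in a contrast that called 3.18% of all genes higher and 2.4% lower. This call was lost after quantile normalization or median centring, and without any 1 of 8 livers (ANIT replicate 3, each corn oil replicate at 5 ml/kg, APAP replicates 1 and 3, and corn oil replicates 1 and 2 at 2 ml/kg), at -0.65 to -0.52. The MDA and ANIT contrasts with APAP share the APAP and corn oil livers. Between ANIT and MDA, 0 of the 10 were called (0.71% of all genes higher and 0.964% lower) and 1 had an unadjusted limma p under 0.05 (2036 of all 14217 genes), Wars1 at -0.55 ± 0.175 (adjusted p = 0.184). The rise of Wars1 in MDA livers was therefore not shown to differ from its value in ANIT livers. For the other 9 genes the 95% interval of the ANIT minus MDA difference lay within 1.5-fold. The APAP effect exceeded the DCLF effect for all 10 genes, or for 9 with the mean of all probe sets. The median was 0.53, beside 0.046 over all genes. The 2 effects had different vehicles, and all 10 genes had a lower mean in corn oil than in water (median -0.10), which enters this contrast. Of the 10 genes, 8 had an unadjusted limma p under 0.05, beside 1935 of all 14217 genes. Calls numbered 0, in a contrast that called 0.134% of all genes higher and 0% lower. The largest were Iars1 at 0.79 ± 0.155 (limma adjusted p = 0.093) and Lars1 at 0.75 ± 0.153 (adjusted p = 0.105). Nars1 followed at 0.68 ± 0.173 (limma adjusted p = 0.178) and Eprs1 at 0.65 ± 0.111 (adjusted p = 0.0727).

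**Figure D3:**
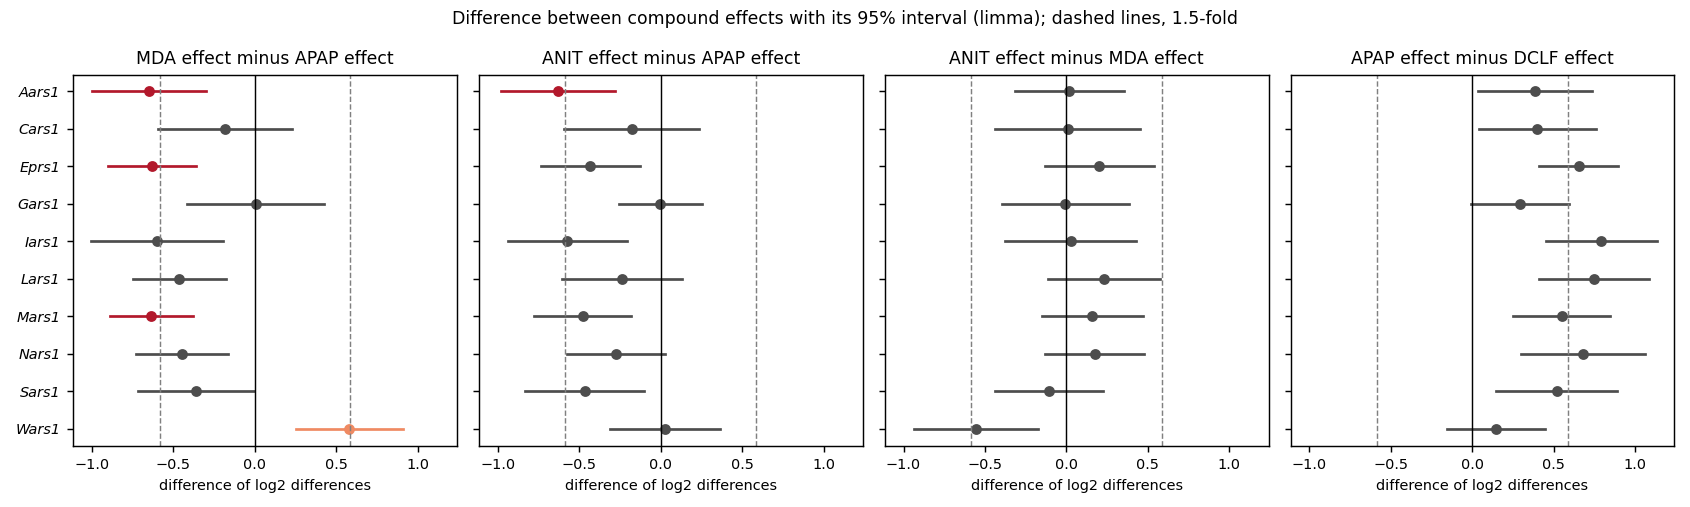
Difference between the effects of 2 compounds on each synthetase (x axis, log2), each effect taken against its own vehicle, with the 95% interval from limma. Red marks calls: Mars1, Eprs1 and Aars1 for MDA minus APAP and Aars1 for ANIT minus APAP; Wars1 in the first panel (orange) passed the adjusted p alone.

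The 10 genes carried 21 probe sets in all, with 4 each for Cars1 and Eprs1, 2 each for Gars1, Iars1, Lars1, Mars1 and Wars1, and 1 each for Aars1, Nars1 and Sars1. Of the 11 that did not stand for their gene, 10 were above 0 in APAP livers, with a median of 0.23. The exception was the further Wars1 probe set at -0.12, where all 3 APAP livers were below the corn oil livers. In MDA livers 3 of the 11 were above 0 and none was called. In ANIT livers an additional Eprs1 probe set stood at 0.49 (limma adjusted p = 0.0397) where the one used stood at -0.01. The same additional Eprs1 probe set had the lowest value of the 21 in DCLF livers, at -0.78 (limma adjusted p = 0.299), and the additional Mars1 probe set stood at -0.73. Both also lay below water in corn oil livers at 2 ml/kg, which had no drug, at -0.43 for Eprs1 and -0.35 for Mars1. Their groups did not overlap there (limma adjusted p = 0.734 for each). Both comparisons use the same 2 water livers, so a high water value lowers both differences. The part of the drug and of the water livers in these values was not tested. In DCLF livers 17 of the 21 probe sets were below 0 and 4 above.

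**Figure D4:**
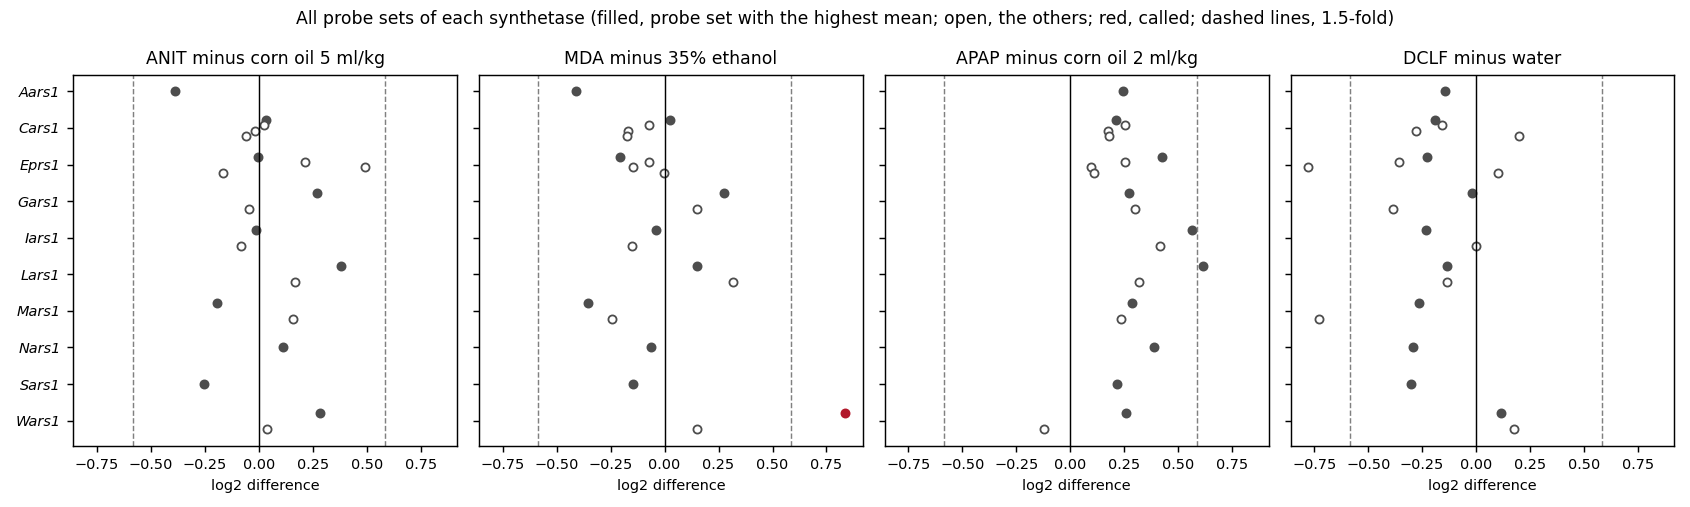
Log2 difference (x axis) of all 21 probe sets of the 10 synthetases for each compound against its vehicle, with filled points for the probe set with the highest mean and open points for the others. In the APAP panel 20 of the 21 points lie right of 0, and the only called point (red) is Wars1 in MDA.

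In several groups a single animal was the highest or the lowest for most of the 10 genes. ANIT replicate 1 was the highest of its group in 8 of the 10 genes (42.3% of all genes), and ethanol replicate 2 in 8 (26.4% of all genes). Corn oil replicate 2 at 2 ml/kg was the lowest of its group in 8 (42.1% of all genes). In the water group each animal was the higher in 5 of the 10 genes. The 10 genes are read from the same RNA of each liver, so they are not independent of each other within an animal.

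The rest of the charging machinery gave 1 call over the 4 compounds against their vehicles. Of the 10 other cytoplasmic synthetases measured (Farsa, Farsb, Hars1, Kars1, Qars1, Rars1, Tars1, Tars3, Vars1 and Yars1), 0 were called for any compound. In APAP livers 9 of the 10 were above 0, with a median of 0.21. Yars1, the tyrosine enzyme, was the largest at 0.46 ± 0.122 (limma adjusted p = 0.268), and Qars1, the glutamine enzyme, the exception at -0.06. The 3 scaffold genes of the complex, Aimp1, Aimp2 and Eef1e1, stood at 0.24, 0.35 and 0.33 in APAP livers and at -0.20, -0.19 and -0.12 in DCLF livers, and none was called for any compound. Of 13 mitochondrial synthetases, which serve the separate translation system of that organelle, 1 was called, Cars2, which fell by 0.69 in ANIT livers (limma adjusted p = 0.00789). For mitochondrial synthetases in MDA livers 1 of 13 was above 0, with a median of -0.22 and none called. DCLF livers had 0 of 13 above 0 (median -0.13), as had corn oil at 2 ml/kg against water without any drug (median -0.12). These counts share the same water livers and are not separate observations. The count above 0 was 5 in ANIT livers (median -0.06) and 10 in APAP livers (median 0.15).

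The amino acid response genes gave a wider range than the synthetases. Of 25 measured genes of ATF4 and its known program, 4 were called higher and 0 lower in APAP livers: the asparagine synthetase Asns at 2.60 ± 0.209 (limma adjusted p = 0.00346), the serine synthesis enzymes Phgdh at 2.54 ± 0.165 and Psat1 at 2.11 ± 0.171, and the mTORC1 inhibitor Ddit4 at 1.13 ± 0.138. Atf4 itself was at 0.48 ± 0.0948 (limma adjusted p = 0.131) and its target Trib3 at 1.30 ± 0.275 (adjusted p = 0.159). The stress genes Ddit3, which encodes CHOP, and Chac1, a glutathione-degrading enzyme, were at 0.06 and 0.21. In MDA livers 4 were higher, Asns at 1.5, Phgdh at 1.44, the stress factor Atf3 at 1.31 and the proline synthesis enzyme Aldh18a1 at 0.97, and 2 were lower, the hormone Fgf21 at -0.75 and the transaminase Gpt2 at -0.74. In ANIT livers Atf3 (1.25), Asns (1.08) and Psat1 (0.94) were higher and Fgf21 (-1.47) and Atf5 (-0.62) lower. Asns was thus called for ANIT, MDA and APAP, while the 10 synthetases all lay above 0 for APAP and lay on both sides of 0 for ANIT (-0.39 to 0.38) and MDA (-0.41 to 0.84). In DCLF livers 0 of the 25 were called and Asns was at -0.37.

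**Figure D5:**
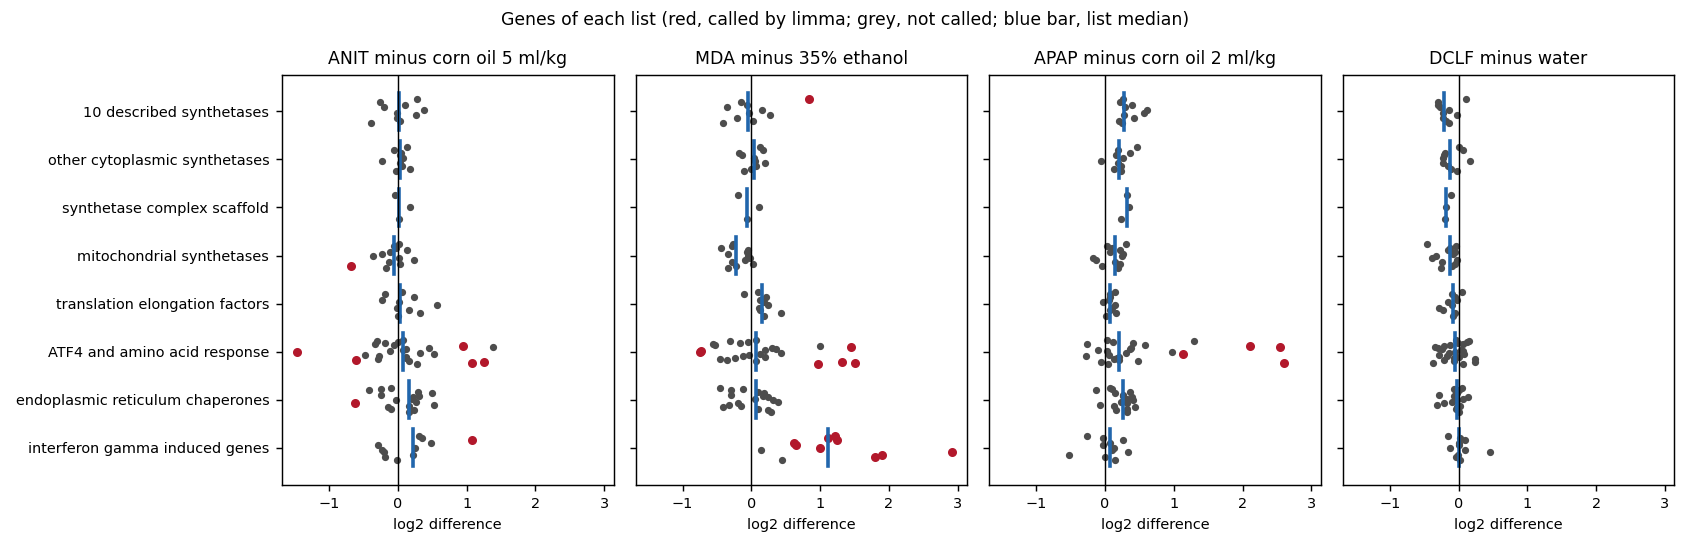
Log2 difference (x axis) of each gene in 8 lists, for each compound against its vehicle, with calls in red, other genes in grey and the list median as a blue bar. The 10 synthetases all lie right of 0 in the APAP panel, from 0.21 to 0.61 around a median of 0.28. Asns, Phgdh and Psat1 of the ATF4 list lie above 2 there.

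The differences were also read against the promoter element. In APAP livers the 5 genes with TGATGCAA had a median difference of 0.28, and the 4 with a window but no element had one of 0.34. In MDA livers the medians were -0.06 with the element and 0.002 without it, and in DCLF livers they were -0.23 with it and -0.18 without it. ANIT livers had medians of -0.01 with the element and 0.14 without it. Among 71 other measured genes with the element in their window, the median in APAP livers was 0.03 and 0 were called, where 11655 genes with a window and no element had a median of 0.02. These medians are descriptions, and the windows cover only the bases near the start.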

How the data were processed

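Liver RNA of 23 rats had been hybridised to Affymetrix RAE230 2.0 arrays. The authors deposited log2 values from Array Studio, made by the robust multichip average (RMA), and no scan dates or batches were given in the sources used here. Precision is limited by how few arrays each group had. Of 31099 probe sets, 57 controls were left out and 31042 tested: 20826 named 1 gene, 436 several and 9780 none. Symbols were updated by gene ID through a rat table (GRCr8), which held 20758 of the single-gene probe sets. The probe set with the highest mean represented each of 14217 genes. Tests used R 4.3.3 and limma 3.58.1 (lmFit and eBayes, two-sided) on the groups compared only, with Benjamini-Hochberg adjustment over all tested probe sets and the thresholds stated above. The methods' t-test (two-sided, p under 0.01, fold over 1.5) was an alternative, with other normalizations, filters, probe set rules, fold thresholds and each sample left out. The script was tested on simulated data. Members and gene lists (other cytoplasmic, scaffold and mitochondrial synthetases, elongation factors, eIF2 cycle, ATF4 response, amino acid transporters, endoplasmic reticulum chaperones, interferon gamma induced genes, ribosome biogenesis, cell cycle, cell type markers) were chosen with earlier results of these data known. Named were all members, the other cytoplasmic and scaffold synthetases, 6 set ATF4 response genes and up to 4 called genes of each other list. Those 6 were all given for APAP, but only where called for ANIT and MDA, and only Asns was given for DCLF. Further ATF4 response genes, and genes named beyond these, were chosen after their values were seen. Sequencing data and carbon tetrachloride samples were not used here. Protein sequences were not used here.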

Additional observations from a re-analysis of the deposited data

Results flagged for a closer look

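Differences between the effects of 2 compounds on a synthetase passed the limma adjusted p threshold in 5 cases. The MDA effect was below the APAP effect by -0.65 on the log2 scale for Aars1, -0.63 for Eprs1 and -0.64 for Mars1. In each of these the MDA mean lay below ethanol and the APAP mean above corn oil: the separate values were -0.41 in MDA and 0.24 in APAP for Aars1, -0.21 in MDA and 0.43 in APAP for Eprs1, and -0.35 in MDA and 0.28 in APAP for Mars1. Wars1 differed in the other direction, by 0.58, with 0.84 in MDA and 0.26 in APAP, and was under the fold threshold. The ANIT effect on Aars1 was below the APAP effect by -0.63, with -0.39 in ANIT and 0.24 in APAP. The compounds were given in different in-life studies, each with a vehicle of its own, so compound, study and vehicle cannot be told apart in these differences.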

How the results depend on the processing

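Of 1201 values recomputed under the alternatives for 72 results, 1100 kept their direction and their side of the threshold or moved little, 101 did not, and 21 of these changed sign. The signs that changed were those of genes near 0. In ANIT livers, Eprs1 was at 0.032 with quantile normalization, 0.0084 with median centring and 0.13 with the mean of all probe sets, and Iars1 at 0.030 with quantile normalization and 0.0011 with median centring. Cars1 was at -0.0045 in ANIT and -0.098 in MDA livers with the mean of all probe sets. With quantile normalization Iars1 was at 0.067 and Nars1 at 0.016 in MDA livers, and Gars1 at 0.093 in DCLF livers. Without 1 sample, ANIT values ran from -0.075 to 0.19 for Cars1, -0.10 to 0.11 for Eprs1 and -0.088 to 0.11 for Iars1; MDA values from -0.075 to 0.13 for Cars1 and -0.15 to 0.10 for Iars1; and DCLF values from -0.079 to 0.038 for Gars1.

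In MDA livers the count called higher was 0 with the adjusted methods' t-test, the mean of all probe sets or a fold over 2, and the count called lower was 2 with no fold threshold. In APAP livers the count called higher was 1 with quantile normalization, all 23 samples in the fit or the unadjusted methods' t-test. For ANIT minus APAP the count lower was 0 with quantile normalization, median centring or a fold over 2, and 0 to 1 without 1 sample. For MDA minus APAP the count higher was 1 with quantile normalization or no fold threshold and 0 to 1 without 1 sample, and the count lower was 0 with quantile normalization or a fold over 2, 1 with the mean of all probe sets and 1 to 4 without 1 sample. Medians over the 10 genes moved with quantile normalization to 0.042 in MDA livers, -0.087 in DCLF livers and -0.35 for MDA minus APAP, and with the mean of all probe sets to -0.24 for ANIT minus APAP and -0.34 for MDA minus APAP. Without 1 sample they ran from -0.047 to 0.12 in ANIT livers, -0.15 to 0.049 in MDA livers and -0.014 to 0.16 for ANIT minus MDA. The cause was not tested, except that a stricter or absent fold threshold acts by construction. No paired analysis was possible because compound and vehicle groups held separate rats, whose replicate numbers were given in sample order and tie no animals together. Where 1 water liver was left out, the lone sample was assumed to vary like the other groups.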

Other observations

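Other steps of translation and amino acid supply gave few calls. Of 10 elongation factors and their regulators, 0 were called for any compound, and Eef1g, a subunit of the factor that reloads EF-1 alpha, was at 0.56 ± 0.0766 in ANIT livers (limma adjusted p = 0.00451), under the fold threshold. Among 16 genes of the eIF2 cycle, ANIT livers had Eif2ak3, the PERK kinase, higher at 0.72 and Ppp1r15b, a phosphatase subunit that reverses eIF2 alpha phosphorylation, lower at -0.62, and MDA livers had Ppp1r15b lower at -0.67. No gene of that list was called in APAP or DCLF livers.

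Of 19 amino acid transporters, Slc6a13 was lower in ANIT livers at -0.67 and in MDA livers at -0.72, where Slc7a8 was higher at 0.59 and Slc1a2 lower at -0.59. In APAP livers the glycine transporter Slc6a9 was higher at 0.77 and the glutamate transporter Slc1a2 lower at -0.82. Of 18 endoplasmic reticulum chaperones and degradation genes, Herpud1 was lower in ANIT livers at -0.62 and 0 were called in MDA, APAP or DCLF livers, with 16 of 18 above 0 in APAP livers and a median of 0.26. Of 15 ribosome biogenesis genes, Myc was higher in ANIT livers at 1.20 and in MDA livers at 0.86, and Polr1b lower in MDA livers at -0.71. None of the 15 was called in APAP livers, where 13 were above 0 with a median of 0.19. Cell cycle genes were called higher in 14 of 15 in ANIT livers, led by Ccna2 at 3.19 and Mki67 at 3.15, and in 5 of 15 in MDA livers, led by Mki67 at 1.93, with 0 in APAP and DCLF livers. In ANIT livers the counts called higher and lower were 2 and 0 of 9 cholangiocyte markers, 3 and 1 of 11 macrophage markers, 5 and 1 of 11 stellate cell and fibroblast markers and 0 and 2 of 8 endothelial markers. In MDA livers they were 3 and 1 of 9 cholangiocyte markers, 2 and 0 of 7 neutrophil markers and 6 and 1 of 11 stellate cell and fibroblast markers. No marker of these cell types was called in APAP or DCLF livers.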
